A study of Mus musculus with 4 samples.

Results

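Dopaminergic neurons of the embryonic midbrain carry CpG positions that are unmethylated although the same positions are methylated in pluripotent cells, and it was asked how these positions stand in neurons made from iPSCs. Positions outside CpG-dense stretches that were at 60% or more in iPSCs and under 20% in primary mesodiencephalic dopaminergic (mdDA) neurons are called mdDA-low CpGs below. There were 1824 of them. They made up 1.87% (95% CI 1.79% to 1.96%, Wilson) of the 97339 positions outside such stretches that were at 60% or more in iPSCs, and 0.788% of all 231370 positions outside them. The positions come from the autosomes and had at least 10 calls in each of the libraries of iPSCs, iPSC-derived dopaminergic (iPSC-DA) neurons and mdDA neurons. CpG-dense stretches, or clusters, were runs of at least 10 such positions with less than 100 bp between neighbours, and held the rest of the 726844 positions covered. With clusters counted from runs of 5 positions, 1195 mdDA-low CpGs were left. The levels of iPSCs and of mdDA neurons chose the mdDA-low CpGs, so that their difference is a description and was not tested.

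DNA methylation was measured in mouse cells by reduced representation bisulfite sequencing (RRBS), in which DNA is cut with MspI at CCGG, treated with bisulfite and sequenced. There was 1 library each of 4 kinds of cell. The iPSCs had been reprogrammed with retroviral Oct4, Klf4, Sox2 and cMyc from embryonic fibroblasts of Pitx3 Gfp/+ mice, which carry GFP in 1 allele of the gene of PITX3, a transcription factor of mdDA neurons. The iPSC-DA neurons came from Pitx3 Gfp/+ iPSCs after 4 weeks of differentiation on MS5 stromal cells and were sorted for GFP, and the mdDA neurons were sorted for GFP from Pitx3 Gfp/+ embryos at E14.5. The precursors, labelled Nestin-GFP neurons and strain Nestin Gfp/+, are described in the methods as NESTIN-GFP-positive neural precursors collected after 14 days of differentiation, and their reporter line is not that of the other libraries. How many animals or iPSC clones went into a library is not given in the sources used here. The identity of the cells was not checked against marker genes, since expression was not analysed here.

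With 1 library per kind of cell there is no spread between replicates, and every test below compares libraries and not conditions. Depth at the mdDA-low CpGs was not quite that at other positions. Over all positions outside clusters the medians were 51 calls in iPSCs, 59 in mdDA neurons, 60 in iPSC-DA neurons and 20 in NESTIN-GFP precursors. At positions at 60% or more in iPSCs that are not mdDA-low they were 43, 58, 58 and 28, in the same order. The median number of calls at an mdDA-low CpG was 42 in iPSCs, 65 in mdDA neurons and 58.5 in iPSC-DA neurons. It was 23 in NESTIN-GFP precursors, the shallowest library, where 1660 of the mdDA-low CpGs had the minimum of 5 calls set for it. Of the other 164, 104 had no call in that library. Reads were amplified by PCR and calls of a read are linked, and near positions had similar levels. The intervals given here take calls or positions as independent, so that they are too narrow and at best cover counting error.

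Methylation of the C of a CpG dinucleotide is copied to the new strand when DNA is replicated, and is lost either when this copying fails over cell divisions or when TET enzymes oxidise the methyl group. Most CpGs outside CpG islands are methylated in somatic cells, and those that are not often lie in enhancers and other regulatory DNA in use in that cell type. Bisulfite sequencing reads 5-methylcytosine and 5-hydroxymethylcytosine alike, and the latter is abundant in neurons.

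The iPSC-DA neurons stood between iPSCs and mdDA neurons at the mdDA-low CpGs, while the NESTIN-GFP precursors did not have the low levels. The mean level was 75.6% in iPSCs (quartiles 66.7% and 83.3%) and 10.5% in mdDA neurons (quartiles 5.32% and 15.8%), as the choice of positions set it. In iPSC-DA neurons, whose level was not used in the choice, the mean was 53.0%, with a median of 53.6% and quartiles of 35.1% and 71.7%. In NESTIN-GFP precursors the mean was 85.2%, with a median of 90.9% and quartiles of 79.4% and 100%. The order of the means was thus mdDA neurons, iPSC-DA neurons, iPSCs and NESTIN-GFP precursors, and the quartile ranges of iPSC-DA neurons and of NESTIN-GFP precursors did not overlap. Taken over all calls rather than over positions, the levels were 51.6% in iPSC-DA neurons and 86.4% in NESTIN-GFP precursors.

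**Figure D1:**
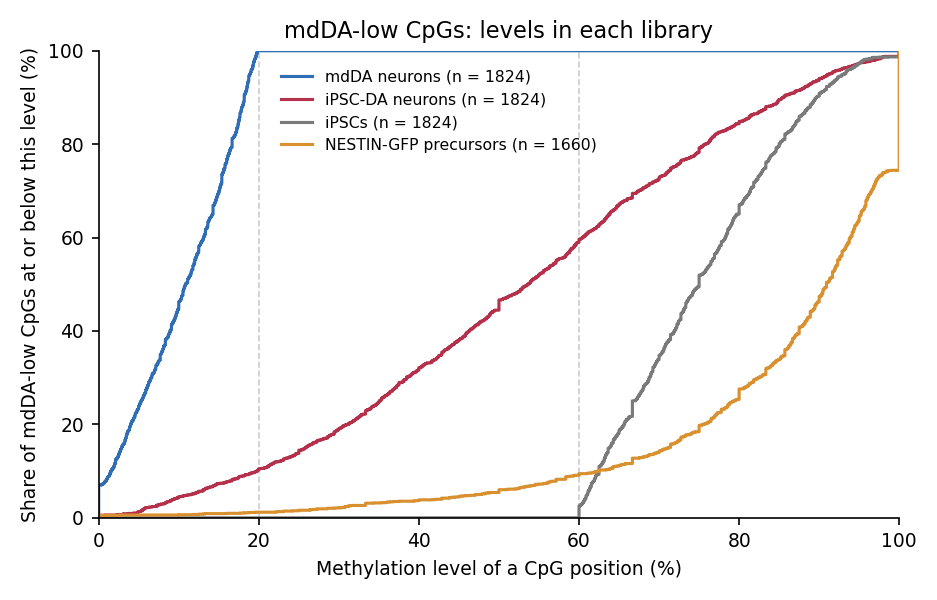
Share of mdDA-low CpGs (y axis, %) whose methylation level is at or below the value on the x axis (%), with 1 line for each library and dashed lines at the thresholds of 20% and 60%. At 20%, 10.2% of the mdDA-low CpGs had been reached in iPSC-DA neurons and 1.20% in NESTIN-GFP precursors, and the iPSC-DA line is steepest between 40% and 60%, where it takes in 27.4% of them.

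In iPSC-DA neurons, 186 of the 1824 mdDA-low CpGs (10.2%, 95% CI 8.89% to 11.7%) were under 20%, the range that defines the set in mdDA neurons. A further 391 were at 20% to 40% and 499 at 40% to 60%, so that 890 (48.8%, 95% CI 46.5% to 51.1%) had a level from 20% to 60%. The other 748 (41.0%, 95% CI 38.8% to 43.3%) were at 60% or more, of which 285 were at 80% or more. Only 10 were at exactly 0% in iPSC-DA neurons, compared with 128 in mdDA neurons. An intermediate level in a library cannot be told apart as a mixture of methylated and unmethylated cells or as a difference between alleles or neighbouring molecules of the same cells.

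In NESTIN-GFP precursors, 1239 of 1660 mdDA-low CpGs (74.6%, 95% CI 72.5% to 76.7%) were at 80% or more and 270 at 60% to 80%. Only 20 (1.20%, 95% CI 0.781% to 1.85%) were under 20%, with 41 at 20% to 40% and 90 at 40% to 60%. A level of exactly 100% was found at 425 of them. With a median of 23 calls, levels of single positions are coarser in this library than in the others.

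The libraries of iPSC-DA neurons and NESTIN-GFP precursors were compared at each position by Fisher's exact test (two-sided) on methylated and unmethylated calls, and a position was called where the levels were 20 or more points apart and the Benjamini-Hochberg adjusted p-value lay below 0.05. Neither library had a part in the levels that chose the set. At 882 of 1660 mdDA-low CpGs (53.1%, 95% CI 50.7% to 55.5%) methylation was lower in iPSC-DA neurons, and at 31 (1.87%) it was higher. Over all 193442 positions tested outside clusters, 19.5% were called lower and 2.41% higher in iPSC-DA neurons. Among the positions at 60% or more in iPSCs that are not mdDA-low, 16.8% were called lower and 0.36% higher. The median difference was -33.0 points at mdDA-low CpGs and -6.32 points over all positions tested. Without the test, iPSC-DA neurons had the lower level at 1461 of the 1660 (88.0%). When the iPSC-DA calls were thinned to the number of NESTIN-GFP calls, 728 were called lower and 15 higher, beside 14% and 1.32% of all positions tested in the same way. The reporter line differs between these libraries as well as the stage, and their parts in the difference cannot be told apart.

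The comparisons with iPSCs share the iPSC library, and its level was used in choosing the positions. Levels in iPSC-DA neurons were lower than in iPSCs at 808 of 1824 mdDA-low CpGs (44.3%, 95% CI 42.0% to 46.6%), by the same test and limits, and higher at 40. The background over all positions outside clusters was 3.98% lower and 34.5% higher. Among the positions at 60% or more in iPSCs that are not mdDA-low, for which the iPSC level was chosen in the same way, it was 8.06% lower and 13.7% higher. The mean difference from iPSCs was -22.6 points at mdDA-low CpGs. The CpGs at 60% or more in iPSCs and at 80% or more in mdDA neurons, called mdDA-high CpGs, went the other way, from a mean of 82.1% in iPSCs to 87.4% in iPSC-DA neurons.

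NESTIN-GFP precursors had a lower level than iPSCs at 76 of 1660 mdDA-low CpGs (4.58%, 95% CI 3.67% to 5.69%) and a higher level at 328 (19.8%, 95% CI 17.9% to 21.7%). The background over all positions outside clusters was 0.313% lower and 47.9% higher, and among positions at 60% or more in iPSCs that are not mdDA-low it was 0.251% lower and 24.2% higher. Losses of methylation were thus called rarely in the precursors, and the share among mdDA-low CpGs was above both backgrounds. The mean difference from iPSCs in the precursors was 9.66 points at mdDA-low CpGs and 14.1 points at mdDA-high CpGs.

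The level in iPSC-DA neurons followed that in mdDA neurons in steps across all CpGs at 60% or more in iPSCs. Where the mdDA level was 80% or more, the iPSC-DA mean was 87.4% over 81520 positions. At 60% to 80% in mdDA neurons it was 73.8% over 7755 positions, and at 40% to 60% it was 69.1% over 3544 positions. At 20% to 40% in mdDA neurons the iPSC-DA mean was 62.2% over 2696 positions, 9.22 points above that of the mdDA-low CpGs. The iPSC means of these bands, from 75.6% to 82.1%, covered a much smaller range. The NESTIN-GFP mean moved in the same order but less, from 96.0% at mdDA-high CpGs to 93.4%, 92.6%, 90.8% and 85.2% at mdDA-low CpGs.

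**Figure D2:**
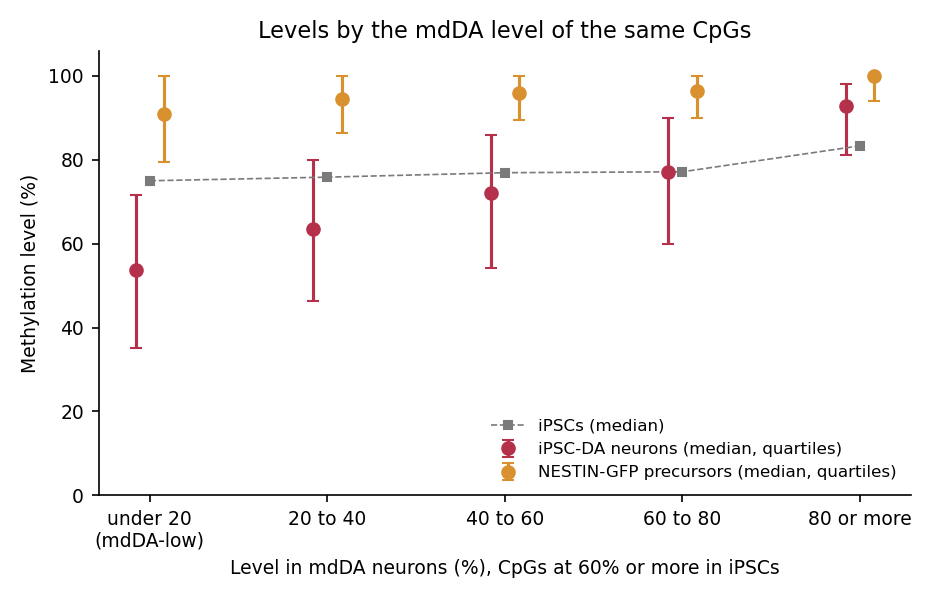
Methylation level (y axis, %) of CpGs at 60% or more in iPSCs, grouped by their level in mdDA neurons (x axis, bands of 20 points). Points are medians with bars to the quartiles for iPSC-DA neurons and NESTIN-GFP precursors, and squares are medians of iPSCs. The iPSC-DA median goes from 53.6% to 92.9% across the bands and the NESTIN-GFP median from 90.9% to 100%.

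The order continued inside the mdDA-low set. The 426 positions under 5% in mdDA neurons had an iPSC-DA mean of 45.2%, and 16.7% of them (95% CI 13.4% to 20.5%) were under 20% in iPSC-DA neurons. The 558 positions at 15% to 20% in mdDA neurons had an iPSC-DA mean of 57.0%, with 5.73% (95% CI 4.09% to 7.98%) under 20%. The NESTIN-GFP means of these bands were 79.1% and 88.0%. Just outside the threshold, at 20% to 25% in mdDA neurons, the iPSC-DA mean of 620 positions was 58.3% and the NESTIN-GFP mean 89.3%. At the threshold in iPSCs, the 330 mdDA-low CpGs from 60% to 65% had an iPSC-DA mean of 49.9%, and the 246 positions up to 5 points below the threshold, just outside, had one of 46.5%. The 178 mdDA-low CpGs at 90% or more in iPSCs had means of 93.8% in iPSCs, 60.5% in iPSC-DA neurons and 91.5% in NESTIN-GFP precursors.

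Low levels in iPSC-DA neurons were seldom found where mdDA neurons were methylated. Of the positions at 60% or more in iPSCs, 371 were under 20% in iPSC-DA neurons, and 186 of these (50.1%, 95% CI 45.1% to 55.2%) were mdDA-low CpGs. Another 148 had an mdDA level from 20% to 80%, and 37 (9.97%, 95% CI 7.32% to 13.4%) were at 80% or more in mdDA neurons. Put the other way, the 186 are 10.2% of the mdDA-low CpGs, and 37 positions are 0.0454% of the 81520 mdDA-high CpGs.

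Both in vitro levels together split the 1660 mdDA-low CpGs with enough calls into 4 groups at a level of 60%. The largest group of 868 (52.3%, 95% CI 49.9% to 54.7%) was at 60% or more in NESTIN-GFP precursors and under 60% in iPSC-DA neurons. In 641 (38.6%, 95% CI 36.3% to 41.0%) both were at 60% or more. In 103 (6.20%) both were under 60%, and in 48 (2.89%) only the precursors were. A level of 80% or more in precursors with one under 20% in iPSC-DA neurons was found at 108 CpGs, and 4 CpGs were under 20% in both.

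**Figure D3:**
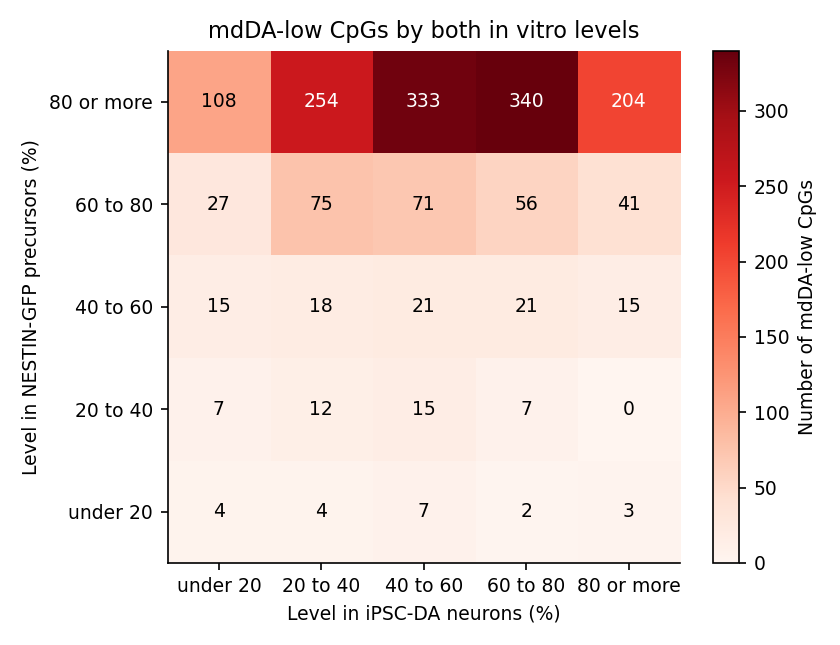
Number of mdDA-low CpGs in each combination of the level in NESTIN-GFP precursors (y axis, %) and in iPSC-DA neurons (x axis, %), in bands of 20 points, for the 1660 CpGs with at least 5 NESTIN-GFP calls. The top row, with precursors at 80% or more, holds 1239 CpGs spread over all iPSC-DA bands.

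The few mdDA-low CpGs that were lower in precursors were also lower in iPSC-DA neurons as a group. Of the 151 under 60% in NESTIN-GFP precursors, 68.2% (95% CI 60.4% to 75.1%) were under 60% in iPSC-DA neurons, and 17.2% (95% CI 12.0% to 24.0%) were under 20%. Of the 1509 at 60% or more in precursors, 57.5% (95% CI 55.01% to 59.99%) were under 60% in iPSC-DA neurons and 8.95% (95% CI 7.61% to 10.5%) under 20%. The mean mdDA levels of these groups were 8.12% and 10.9%, and their mean iPSC levels were 72.4% and 75.9%. Inside the lower group the levels were not in order. The iPSC-DA mean was 47.3% for CpGs under 20% in precursors, 40.1% at 20% to 40% and 50.1% at 40% to 60%. The positions low in precursors had a median of 17 NESTIN-GFP calls, and the others had 25, and the part of this difference in depth was not tested.

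Many mdDA-low CpGs lay near another. Of the 1824, 1094 (59.98%) had another mdDA-low CpG less than 500 bp away. Both positions of such a pair were chosen by their levels, so this is a description. An mdDA-low CpG lay that near to 0.162% of the mdDA-high CpGs and to 1.54% of all positions outside clusters. How often mdDA-high CpGs lay near each other was not counted, so these shares do not measure grouping beyond that of covered positions. Within 40 bp, the length of a read, 892 had another, and such positions can share reads where they are on the same strand. When mdDA-low CpGs less than 500 bp apart were joined, they formed 1134 regions, of which 730 held 1 CpG position, 234 held 2, 102 held 3, and 68 held 4 to 8. The 404 regions of 2 or more positions held 1094 positions and reached 470 bp at most. The iPSC-DA means were 53.4% in regions of 2 or more positions and 52.3% at lone positions, and the NESTIN-GFP means were 84.5% and 86.5%. Counted by region rather than by position, 9.44% of the 1134 regions were under 20% in iPSC-DA neurons and 40.2% were at 60% or more.

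The neighbours of mdDA-low CpGs were described by distance over all positions outside clusters, which include other mdDA-low CpGs. These made up 35.0% of the pairs at 41 to 100 bp, 25.1% at 101 to 250 bp and 5.88% at 1001 to 2000 bp, and their mdDA levels are low by the choice of the set, so that the mdDA means are a description only. At 41 to 100 bp, beyond the length of a read, the mean mdDA level of neighbours was 22.1% over 1479 pairs, whatever their iPSC level, and it was 27.9% at 101 to 250 bp, 45.2% at 251 to 500 bp and 53.3% at 1001 to 2000 bp. Around mdDA-high CpGs the means at 41 to 100 bp and at 1001 to 2000 bp were 91.7% and 76.1%. In iPSC-DA neurons the neighbours of mdDA-low CpGs had means of 52.9% at 41 to 100 bp and 65.8% at 1001 to 2000 bp. Those of mdDA-high CpGs had 85.8% and 77.4%. In NESTIN-GFP precursors the neighbours of mdDA-low CpGs stayed between 80.9% and 89.0% at all distances. A pair of neighbours can enter more than once, since regions hold several mdDA-low CpGs.

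**Figure D4:**
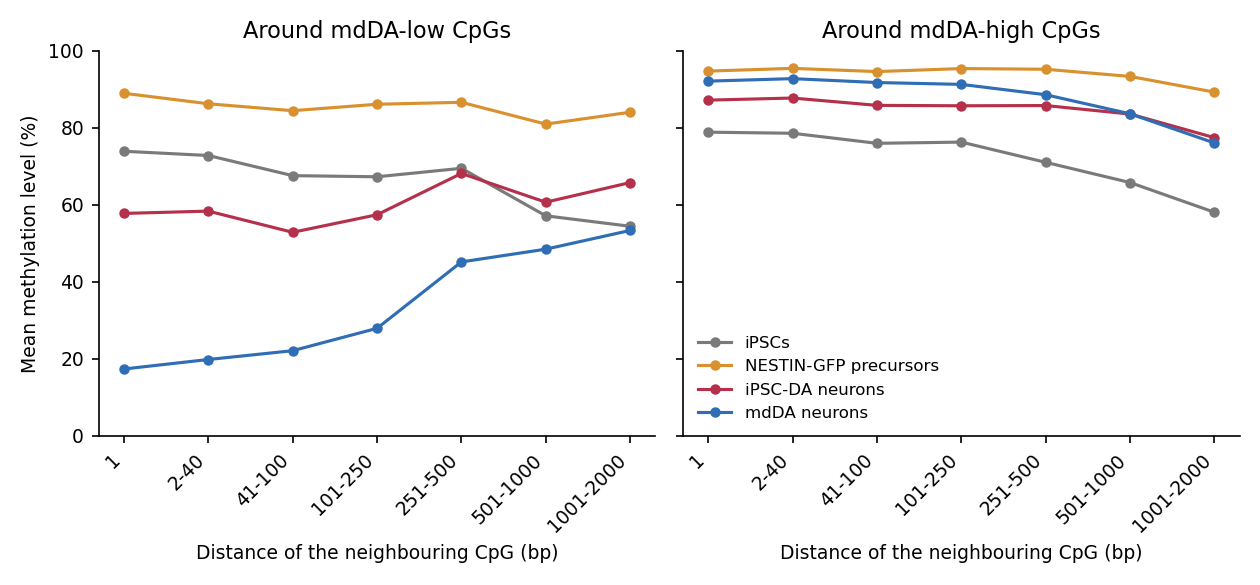
Mean methylation level (y axis, %) of other CpG positions outside clusters by their distance (x axis, bp) from mdDA-low CpGs (left) and from mdDA-high CpGs (right), with 1 line for each library. Around mdDA-low CpGs, where neighbours include other mdDA-low CpGs, the mdDA line climbs from 17.4% at 1 bp to 53.3% at 1001 to 2000 bp, and the NESTIN-GFP line lies above the others at each distance.

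The opposite strand of a CpG is read from other molecules and is listed as the next position. Adjacent positions were taken as strands of the same CpG, although no sequence was used to check this. For 105 mdDA-low CpGs the neighbouring base was also covered outside clusters. Counting partners that belong to the set themselves, it was under 20% in mdDA neurons in 78 and at 60% or more in iPSCs in 91. Of these partners 68 were mdDA-low CpGs themselves, from 34 adjacent pairs with both positions in the set. Their mdDA and iPSC levels were set by the choice, so that the counts are a description only. The median level of these partners was 13.3% in mdDA neurons, 74.6% in iPSCs and 59.5% in iPSC-DA neurons, where the mdDA-low CpGs themselves had 53.1%. The median difference between the strands in iPSC-DA neurons, without sign, was 10.2 points.

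Levels in iPSC-DA neurons were alike among near mdDA-low CpGs and less so among distant ones. For pairs up to 40 bp apart the median difference without sign was 10.0 points (753 pairs), at 41 to 100 bp it was 14.2 points (259 pairs), at 101 to 250 bp it was 17.1 points (128 pairs) and at 251 to 499 bp it was 22.8 points (23 pairs). Pearson's r between the members of a pair was 0.73, 0.61, 0.42 and 0.28, respectively. These values describe pairs of positions in 1 library, and those up to 40 bp apart on the same strand can share reads.

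CpG clusters were mostly far away. The median distance from an mdDA-low CpG to the nearest position of a cluster was 58336 bp, compared with 49626 bp for mdDA-high CpGs and 22417 bp for all positions outside clusters. Only 70 mdDA-low CpGs (3.84%) lay within 2000 bp of a cluster, compared with 2.48% of mdDA-high CpGs and 21.5% of all positions outside clusters. Distances depend on which positions were covered. The 66 mdDA-low CpGs at 500 to 2000 bp from a cluster had an iPSC-DA mean of 55.0%, the 184 at 2000 to 10000 bp had 49.9%, and the 991 at 50000 bp or more had 53.9%. The share of positions at 60% or more in iPSCs that were mdDA-low was highest at 500 to 2000 bp, with 2.96% (95% CI 2.33% to 3.75%), and 1.42% (95% CI 1.23% to 1.63%) at 2000 to 10000 bp.

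Every autosome held mdDA-low CpGs, from 39 on chromosome 14 to 166 on chromosome 8. As a share of the positions at 60% or more in iPSCs they ranged from 1.08% on chromosome 14 to 2.64% on chromosome 8. The mean iPSC-DA level of a chromosome ranged from 44.2% on chromosome 16 to 56.5% on chromosome 7, and the NESTIN-GFP mean from 74.8% on chromosome 15 to 90.4% on chromosome 10. On each autosome the iPSC-DA mean was therefore below the NESTIN-GFP mean.

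Levels in iPSC-DA neurons, NESTIN-GFP precursors and iPSCs were all highest at the mdDA-low CpGs with the fewest mdDA calls. The 455 mdDA-low CpGs with under 30 mdDA calls had an iPSC-DA mean of 56.4%, the 772 with 30 to under 100 calls had 51.6%, and the 597 with 100 or more calls had 52.1%. The NESTIN-GFP means of the same groups were 90.3%, 85.1% and 81.8%, and the iPSC means were 77.7%, 74.9% and 74.9%. In each of these groups the iPSC-DA mean lay below the NESTIN-GFP mean.

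Regions of at least 6 mdDA-low CpGs show the range of outcomes in iPSC-DA neurons within single stretches of DNA. There were 9 such regions, and 8 had NESTIN-GFP calls at a sufficient number of positions. They are named A to H here in the order of their iPSC-DA level, taken as methylated calls over all calls of the mdDA-low CpGs of the region. The mdDA-low CpGs of a region are counted as positions. With strands merged, regions A, C, F and G held 5, 7, 6 and 4. Coordinates are in NCBIM37 (mm9), judged from the highest positions in the files. No gene annotation of that build was used, and whether these regions lie in genes was not analysed here.

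Regions A to D had the lowest iPSC-DA levels. Region A, with 6 mdDA-low CpGs on chromosome 13 from 72088992 to 72089051, was at 85.2% in iPSCs and 93.5% in NESTIN-GFP precursors. It was at 32.7% in iPSC-DA neurons (95% CI 29.3% to 36.3%, 685 calls), whereas mdDA neurons had 9.31% (95% CI 7.38% to 11.7%, 709 calls). All 6 of its positions were called lower in iPSC-DA neurons than in NESTIN-GFP precursors. Single positions of the region ranged from 18.3% to 53.8% in iPSC-DA neurons. The lowest were the adjacent positions 72089021 and 72089022, taken as the strands of 1 CpG, with 19.5% and 18.3%.

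Region B, with 6 mdDA-low CpGs on chromosome 3 from 67696167 to 67696263, was at 86.3% in iPSCs, 97.6% in NESTIN-GFP precursors, 8.46% in mdDA neurons and 36.4% in iPSC-DA neurons. Region C, with 8 mdDA-low CpGs on chromosome 17 from 48194353 to 48194579, was at 72.5%, 88.9%, 9.34% and 37.9%, in the same order of libraries. All 6 mdDA-low CpGs of region B and all 8 of region C were called lower in iPSC-DA neurons than in the precursors. In region C the CpG lowest in mdDA neurons, at 48194561 with 0% of 21 calls, was also the lowest in iPSC-DA neurons, with 12.1%. The same held in region B but not in regions D, E and F, and in region H several CpGs shared the lowest iPSC-DA level. In regions A and G the position lowest in mdDA neurons was next to the position lowest in iPSC-DA neurons. These adjacent positions were taken as strands of the same CpG. In region F the CpG at 0% in mdDA neurons was at 66.0% in iPSC-DA neurons, and another was at 48.6%.

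Region D, the longest of the 8, held 8 mdDA-low CpGs over 365 bp of chromosome 1 from 161600945 to 161601309. Its pooled level was 83.8% in iPSCs, 94.9% in NESTIN-GFP precursors, 7.04% in mdDA neurons and 44.8% in iPSC-DA neurons. The iPSC-DA level changed along the region. The CpG at 161601073 was at 75.5% in iPSCs, 100% in precursors, 0.844% in mdDA neurons and 19.5% in iPSC-DA neurons, and the 3 CpGs from 161601123 to 161601133 were at 47.5%, 48.9% and 48.2% in iPSC-DA neurons, with mdDA levels under 2%. At the end of the region, the CpG at 161601309 was at 84.1% in iPSCs, 87.5% in precursors, 19.0% in mdDA neurons and 84.0% in iPSC-DA neurons, and it was the 1 CpG of the 8 not called lower in iPSC-DA neurons than in precursors. With clusters counted from runs of 5 positions, most of the region fell inside a cluster, and the CpGs left had a pooled iPSC-DA level of 78.6%.

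Regions E to H had higher iPSC-DA levels although their mdDA levels were about the same. Region E, with 6 mdDA-low CpGs on chromosome 11 from 52146310 to 52146415, had an iPSC-DA level of 56.7% (95% CI 49.9% to 63.2%) and an mdDA level of 7.31%, with 79.3% in iPSCs and 96.9% in precursors. Region F, with 7 on chromosome 7 from 128693178 to 128693332, had an iPSC-DA level of 61.3% and an mdDA level of 9.41%. Its level of 80.2% in precursors was close to the 79.3% of iPSCs. In region G, with 6 on chromosome 8 from 89645884 to 89645917, the level was 81.2% in iPSC-DA neurons, 79.4% in precursors, 88.4% in iPSCs and 11.5% in mdDA neurons.

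Region H held 6 mdDA-low CpGs in 31 bp of chromosome 9 from 118944061 to 118944091 and was methylated in all libraries but that of mdDA neurons. Its iPSC-DA level reached 99.0% (95% CI 97.0% to 99.6%, 288 calls), beside 97.9% in NESTIN-GFP precursors and 86.2% in iPSCs, compared with 10.8% (95% CI 6.83% to 16.6%, 158 calls) in mdDA neurons. None of the CpGs of regions G and H was called lower in iPSC-DA neurons than in precursors. At 31 bp and 34 bp, regions H and G are shorter than a read, so that their positions on the same strand can share reads and are not independent measurements. The 6 positions of region G are 4 CpGs, of which some were read on both strands. The ninth region, with 7 mdDA-low CpGs on chromosome 19 from 7159382 to 7159418, was at 74.6% in iPSCs, 5.41% in mdDA neurons and 51.5% in iPSC-DA neurons, and no CpG of it had 5 calls in precursors.

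**Figure D5:**
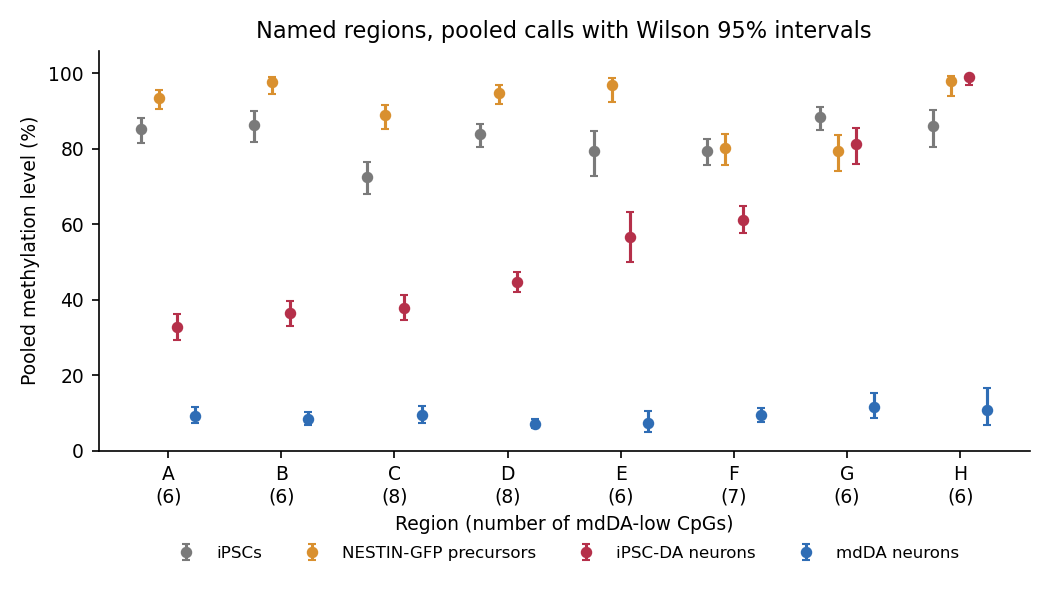
Pooled methylation level (y axis, %) of the mdDA-low CpGs of regions A to H (x axis, with their number) in each library, with bars for Wilson 95% intervals of the calls. The mdDA levels lie between 7.04% and 11.5%, while the iPSC-DA levels go from 32.7% in region A to 99.0% in region H.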

How the data were processed

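The 4 RRBS libraries (iPSCs, mdDA neurons, iPSC-DA neurons and NESTIN-GFP precursors) were all used. Single reads of 40 bases went through FastQC and Trim Galore 0.3.5 and were then aligned by the authors with Bareback and Bismark 0.10.1, which also called methylation, per the methods and the submitters' processing notes. They deposited, for each cytosine position, the count of methylated and of unmethylated calls, without normalization or a coverage filter. The deposited percent equals methylated calls over all calls and was computed anew. Libraries held 31419979 to 79648099 calls. Strands of a CpG are separate positions. The build is not given in the sources used here. NCBIM37 (mm9) was taken as the build because the highest position on chromosome 1, 197192264, lies within its length but past the end of that chromosome in GRCm38. No genome of that build was used, so that sequences, genes and MspI sites at the positions were not analysed here.

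The set, its thresholds and the comparisons were chosen with earlier results of these data known. Positions with at least 10 calls in iPSCs, iPSC-DA and mdDA neurons were sorted into clusters (at least 10 positions, gaps under 100 bp) and the rest. NESTIN-GFP levels needed 5 calls. Fisher's exact tests (two-sided) were adjusted over all positions outside clusters that could be tested. Among regions with at least 6 mdDA-low CpGs, of which at least 3 had 5 NESTIN-GFP calls, and not on chromosome 18, those named were the 4 with the most mdDA-low CpGs, the 4 lowest and the 4 highest in iPSC-DA neurons, which took in all 8 that met the conditions. Shares have Wilson 95% intervals, which take positions as independent. Python 3.11.15 was used with numpy 2.4.6, pandas 2.3.3, scipy 1.17.1 and numba 0.67.0, and the code was tested on simulated data. Alternatives changed the minimum of calls, strands, clusters, thresholds, coverage, chromosome 10, depth and the size of difference.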

Additional observations from a re-analysis of the deposited data

Results flagged for a closer look

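The rule for mdDA-low CpGs left out the X chromosome and CpG clusters. Positions that met its level thresholds were found there, in data that no comparison above used. On the X chromosome, 5 of 2315 positions outside clusters that were at 60% or more in iPSCs were under 20% in mdDA neurons (0.216%, 95% CI 0.0923% to 0.505%). This is below the 1.87% of the autosomes outside clusters. The 5 had means of 50.4% in iPSC-DA neurons and 93.1% in NESTIN-GFP precursors (4 positions), too few for more than a description. Inside CpG clusters of the autosomes, 111 of 4054 positions at 60% or more in iPSCs were under 20% in mdDA neurons (2.74%, 95% CI 2.28% to 3.29%). Their means were 73.0% in iPSCs, 82.3% in NESTIN-GFP precursors, 10.0% in mdDA neurons and 59.8% in iPSC-DA neurons, and 6 of them were under 20% in iPSC-DA neurons.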

How the results depend on the processing

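No paired analysis was possible because there is 1 library per kind of cell. Under all alternatives tried the mean level of mdDA-low CpGs was lower in iPSC-DA neurons than in NESTIN-GFP precursors. The set had 638 positions with an iPSC level of at least 80%, 815 with an mdDA level under 10% and 1195 with clusters from 5 positions. In that order of settings, 342, 410 and 548 were called lower in iPSC-DA neurons than in iPSCs, 299, 387 and 591 lower in iPSC-DA neurons than in precursors, 29, 35 and 53 lower in precursors than in iPSCs, and 6, 17 and 15 higher in iPSC-DA neurons than in precursors. The iPSC-DA means were 56.8%, 48.7% and 51.1%, and the NESTIN-GFP means were 88.5%, 82.4% and 85.1%. With a minimum of 20 calls (10 in NESTIN-GFP) these means were 52.7% and 84.4%, with a minimum of 5 calls 53.6% and 86.1%, and the medians were 53.6% and 90.9%. With a difference of at least 40 points, 460 were called lower in iPSC-DA neurons than in iPSCs, 632 lower than in precursors, 43 lower in precursors than in iPSCs and 16 higher in iPSC-DA neurons than in precursors. Thinning iPSC-DA calls to the NESTIN-GFP depth gave 15 higher. Merging strands, gaps under 200 bp, leaving out chromosome 10 or leaving out the positions with the most calls moved no count by over 1.5 times. The share of mdDA-low CpGs under 20% in iPSC-DA neurons lay between 8.78% and 14.6%, and that at 60% or more between 34.1% and 47.8%. The iPSC-DA level of region D went up to 78.6%, under the cluster definition from 5 positions, which leaves fewer of its CpGs. That definition left no CpG of the other named regions, gaps under 200 bp left none of regions C and D, and an iPSC level of at least 80% left none of region C. Depth limits the precursors most. Fisher's test takes linked and PCR-copied calls as independent, so that its p-values are too small.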
